A study of Homo sapiens with 9 samples.

Results

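The histone genes were followed in THP-1 cells, a human monocytic leukemia line, through 77 genes and 89 probes of an Illumina bead array. Members were the probes whose platform symbol, updated to its current name, belongs to the histone families, with antisense and divergent transcripts left out. A probe passed when its detection score (1 minus the detection p) was above 0.95 on at least 3 of the 9 arrays. Of the 89 histone probes, 41 passed (34 genes), out of 18102 passing probes among the 48803 on the array. They comprised 26 probes of 24 replication-dependent genes and 15 probes of 10 variant genes.

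RNA was profiled from cells that were fresh, frozen or replated, with 3 arrays per state. All 9 samples were the same cell line, and the labels give neither a genotype change nor an agent, freezing medium, thaw or culture time. By its title the series is about RNA obtained from stocks held in liquid nitrogen. The design text calls the replicates biological without saying how they were separated, so p-values measure the spread between these samples. The spread and the small number of arrays limit the precision of every value. The arrays compare bulk RNA, in which fewer cells that transcribe a gene and less RNA per cell cannot be told apart.

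Histones H2A, H2B, H3 and H4 form the protein core around which DNA is wrapped, and linker histone H1 binds the DNA between cores. Replication-dependent histone genes are short, intronless and clustered, are transcribed mainly in S phase, and make messages that end in a stem-loop in place of a poly(A) tail. Variant histone genes lie outside the clusters, and most are transcribed through the cell cycle into polyadenylated messages. Kits of the type named in the labels start cDNA synthesis from an oligo(dT) primer, which favours polyadenylated RNA. Some replication-dependent genes also make polyadenylated transcripts, and many are so alike in sequence that a probe named for a gene may bind the message of a near-identical copy.

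Detected probes numbered between 16898 and 17679 per array, and the mean signal before normalization lay between 300 and 367. All 11 monocytic marker genes with a named probe, among them LYZ, SPI1 and MPO, were detected on every array. Of 16 marker genes for other cell types, between 2 and 4 were detected per array (NKG7, PECAM1, CD79A or MS4A1), and those of T cells, epithelium, fibroblasts and red cells were detected on none. LYZ and NKG7 were higher in replated than in fresh cells, by 0.85 ± 0.06 and 0.50 ± 0.07 on the log2 scale (SE, adjusted p 6.99e-05 and 0.00333, limma). Against frozen cells the monocytic LYZ (0.86 ± 0.06, adjusted p 3.31e-05, limma) and FCGR1A (0.25 ± 0.06, adjusted p 0.0248) were higher in replated cells. So were NKG7 (0.39 ± 0.07, adjusted p 0.0053) and PECAM1 (0.26 ± 0.08, adjusted p 0.0496) of the other cell types. Higher calls against fresh cells were 1 of 11 tested monocytic and 1 of 4 tested other-type markers, beside 2.44% of all genes. Against frozen cells they were 2 of 11 and 2 of 4, beside 6.6% of all genes. The summed raw signal of the other-type markers ran from 2836 to 3057 in fresh, from 2478 to 3004 in frozen and from 2907 to 3194 in replated cells. That of the monocytic markers ran from 43218 to 48688, from 40165 to 48077 and from 48594 to 50200. The part of these markers in the histone values was not tested.

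Which histone genes the arrays could see differed between the classes. Among replication-dependent genes, 1 of 6 H1 probes, 4 of 17 H2A probes, 10 of 20 H2B probes, 8 of 12 H3 probes and 3 of 16 H4 probes passed. Among variant genes, 10 of 10 H2A-type probes, 4 of 5 H3-type probes and 1 of 3 H1-type probes passed. All 15 passing variant probes were detected on all 9 arrays, against 15 of the 26 passing replication-dependent probes. Of the 48 probes that did not pass, 41 were detected on no array and 7 on 1 or 2 arrays. The count of detected replication-dependent probes ran from 20 (fresh replicate 3) to 26 (fresh replicate 2), and that of variant probes from 15 to 16.

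**Figure D1:**
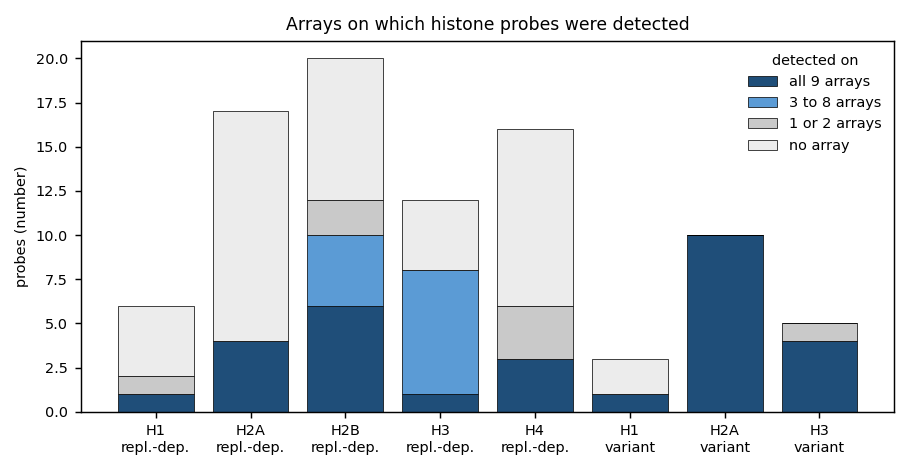
Number of histone probes by family and class, with the shade giving the number of arrays on which the probe was detected. All 10 variant H2A probes were detected on all 9 arrays, whereas 13 of 17 replication-dependent H2A probes were detected on none.

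Probes near the detection limit carried similar raw signals on both sides of it. H2BC4 and H3C8, each detected on 3 arrays, had signals of 57.9 to 77.5 and 63.5 to 72.3. H1-3, H2BC21, H4C5 and 1 probe of H4C8, each detected on 2 arrays, had signals of 58.5 to 77.1, 57.4 to 85.4, 61.0 to 74.8 and 54.2 to 72.6. H2BC4 and H3C1 were detected on no replated array and H3C8 on no fresh array, so these probes give only a bound in those states, and no difference between states was called for them.

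The passing replication-dependent genes lay in the known clusters (GRCh38.p14, from the RefSeq gene table). Of the 24 genes, 17 were on chromosome 6 between 26020451 and 27872346, and 6 were on chromosome 1 between 149782689 and 149887411. The remaining gene, H2AC25, was at 228457364 to 228457873 on chromosome 1, beside H2BC26 (228458103 to 228458558), which did not pass. The annotated extent was over 1000 bases for 5 of the 24 passing replication-dependent genes (H2BC4, H2BC5, H2BC12, H2BC18 and H3C4, between 2510 and 29682 bases). It was over 1000 bases for 1 of the 41 replication-dependent genes that did not pass (H2BC21, 2224 bases). All 12 variant genes had an annotated extent over 1000 bases.

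Histone promoters carry known short elements, and the sequence upstream of the start site is shown for 4 of the 9 genes with a called probe: the H2A genes H2AC18 and H2AC20, whose probes changed together, the H3 gene H3C13 of the same cluster and the variant gene H3-3B. Each window is the 250 bases before the annotated start (RefSeq, GRCh38.p14), written 5′ to 3′ on the gene's strand. Capitals mark matches, on either strand, to the letters of any of 5 elements. CCAAT stands for the box of that name. The TATA box was searched as TATAAA. For the octamer bound by POU factors the letters were ATTTGCAT. The cyclic AMP response element was searched as TGACGTCA. For the AP-1 site the letters were TGACTCA. The windows are chr1:149842751-149843000 on the minus strand for H2AC18, chr1:149886668-149886917 on the plus strand for H2AC20, chr1:149813694-149813943 on the minus strand for H3C13 and chr17:75779780-75780029 on the minus strand for H3-3B.
H2AC18: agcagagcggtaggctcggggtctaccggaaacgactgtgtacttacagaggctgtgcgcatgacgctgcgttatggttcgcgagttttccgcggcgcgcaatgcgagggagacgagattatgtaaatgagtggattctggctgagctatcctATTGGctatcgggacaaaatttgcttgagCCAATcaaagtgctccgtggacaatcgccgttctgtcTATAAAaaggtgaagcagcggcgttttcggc
H2AC20: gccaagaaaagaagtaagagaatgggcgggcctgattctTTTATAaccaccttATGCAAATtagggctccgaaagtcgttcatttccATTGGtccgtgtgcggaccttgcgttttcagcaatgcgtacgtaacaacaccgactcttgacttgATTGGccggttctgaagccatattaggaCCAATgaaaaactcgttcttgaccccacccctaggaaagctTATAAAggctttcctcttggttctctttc
H3C13: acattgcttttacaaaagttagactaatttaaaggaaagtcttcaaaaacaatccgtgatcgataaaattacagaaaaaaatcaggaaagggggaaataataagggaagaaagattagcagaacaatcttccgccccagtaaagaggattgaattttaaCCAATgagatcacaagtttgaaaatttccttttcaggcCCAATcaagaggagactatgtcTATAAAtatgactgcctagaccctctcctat
H3-3B: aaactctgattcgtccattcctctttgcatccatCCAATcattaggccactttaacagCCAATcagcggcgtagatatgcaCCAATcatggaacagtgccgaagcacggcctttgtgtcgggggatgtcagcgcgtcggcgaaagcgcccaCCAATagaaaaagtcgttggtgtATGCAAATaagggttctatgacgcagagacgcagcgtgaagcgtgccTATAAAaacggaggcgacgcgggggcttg

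H2AC20 held 3 CCAAT matches, 2 TATA matches and 1 octamer, whereas H2AC18 held 2 CCAAT matches, 1 TATA match and no octamer in its window. Most of the H2AC20 window also lies upstream of H2BC21, a neighbour on the opposite strand. The TATA match of H2AC20 farther from its start is the match that begins 30 bases before the H2BC21 start, and the octamer lies beside it. The contrast with H2AC18 thus includes letters near the start of another gene. H3C13 held 2 CCAAT matches and 1 TATA match. The TATA match nearest the start began 31 bases before it in H2AC18 and H3C13, and 29 bases before it in H2AC20 and H3-3B. H3-3B, although a variant gene, held 4 CCAAT matches, 1 TATA match and 1 octamer. The called genes not printed held fewer: H1-2 had 1 CCAAT match and no TATA match, H1-10 had 1 TATA match and no CCAAT match, MACROH2A2 had none of the 5 elements, MACROH2A1 had 2 CCAAT matches in 1 of its 2 windows and no TATA match, and H3C11 had no window in the table. These matches describe the letters of the windows, and none is evidence that a factor binds there.

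Windows were found for 71 of the 77 histone genes, and H3-5, H3C11 and H4C3 were without an entry among the 34 passing genes. CCAAT was present in 85.7% of 63 replication-dependent windows, in 68.8% of 16 variant windows and in 32% of all 35116 windows in the table. TATAAA was present in 68.3%, 25% and 10.7% of them, and the octamer in 41.3%, 6.25% and 1.63%. Within the replication-dependent genes the octamer was found in 71.4% of 14 H2A windows and 75% of 20 H2B windows, against 9.09% of 11 H3 windows and none of the 6 H1 and 12 H4 windows. Some windows share bases, since neighbouring genes can start back to back. H2BC5 and H2BC12 each entered with 2 nearly identical windows. The 1 H3 window with an octamer, of H3C4, covers the same bases as that of H2AC7. The percentages thus count some bases more than once. CCAAT was held by 3 of the 12 H4 windows and by all H1, H2A, H2B and H3 windows of the class. The cyclic AMP response element was present in 12.7% of replication-dependent windows and 1.65% of all windows, and the AP-1 site in 0 of 63 and 4.2%. An absent match says only that these letters were not in the window.

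**Figure D2:**
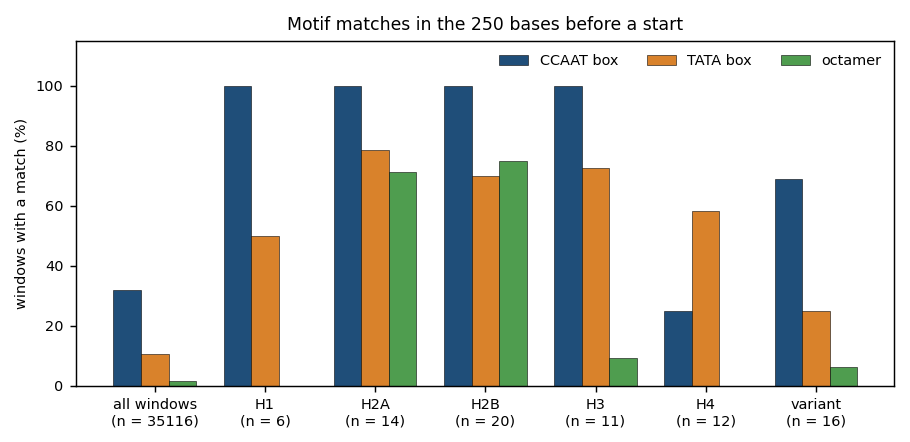
Percentage of 250-base windows before a start site that held a CCAAT box, TATA box or octamer match, for all windows, for each replication-dependent family and for variant genes (n, number of windows). The octamer bars stand at 71.4% for H2A and 75% for H2B windows and at 0% for H1 and H4 windows.

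Frozen against fresh cells asked what storage as a frozen stock left in the histone messages. H2AC20, a core histone H2A gene, rose 1.32-fold and 1 probe of MACROH2A1, the gene of a variant H2A with a large globular domain, fell 1.33-fold. No other histone probe passed the test (limma, adjusted p under 0.05 over all 18102 probes). The 2 called probes were 4.88% of the 41, beside 1.02% of all tested probes (0.486% higher and 0.53% lower). The arrays of both states did not overlap for 11 of 41 histone probes (26.8%), beside 22.4% of all probes, so the share without overlap was near the background. Median differences on the log2 scale were 0.05 over replication-dependent probes, 0.01 over variant probes and 0.01 over all probes. They were 0.01, -0.07 and -0.10 with centring on the median of all probes, 0.16, 0.08 and 0.05 with centring on that of the passing probes, and 0.13, 0.01 and 0.01 with the authors' processed values. The split of 1 higher and 1 lower call became 0 and 1 under the former centring and 3 and 1 under the latter.

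Replated against fresh cells asked how far cells that were plated again resembled fresh ones. H3-3B, which encodes the replacement histone H3.3, was 1.22-fold lower in replated cells. A probe of H3C13, a core histone H3 gene, was also called, as higher, but it entered the fit through its detection on the replated arrays, so its call is no independent support for a difference. These 2 probes were 4.88% of the 41, beside 4.13% of all tested probes (2.22% higher and 1.91% lower), a share near the background and hence not a result about histone genes as a group. Arrays did not overlap for 11 of 41 probes (26.8%), beside 25.6% of all probes. The median difference was -0.09 over replication-dependent, -0.01 over variant and 0.00 over all probes. The split of 1 higher and 1 lower call became 0 and 0 with centring on the median of all probes, and 0 and 1 with centring on that of the passing probes.

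Replated against frozen cells gave the most calls among the 3 comparisons. H1-2, H2AC18 (both probes), H2AC20 and H3C11 among replication-dependent genes and H1-10, MACROH2A2 and H3-3B among variant genes were lower in replated cells, and 2 probes of MACROH2A1 were higher. The 10 called probes were 24.4% of the 41, beside 11.6% of all probes. They include 2 probes each of H2AC18 and MACROH2A1. With the mean of a gene's probes, 7 of 34 genes were called, 0 higher and 7 lower. Lower calls made up 19.5% of the histone probes, beside 5.32% of all probes, and higher calls 4.88%, beside 6.25%. The arrays of both states did not overlap for 13 of 41 probes (31.7%), beside 33.8% of all probes, so that share was near the background. Median differences were -0.03 over replication-dependent, 0.08 over variant and -0.01 over all probes. With centring on the median of all probes they were 0.00, 0.09 and 0.08, with 3 higher and 4 lower histone calls, and with centring on that of the passing probes -0.13, -0.04 and -0.05, with 2 higher and 8 lower calls. The moderated F test over the 3 states called 8 of the 41 histone probes (19.5%), beside 9.63% of all probes. Among the 8 were 2 probes each of H2AC18 and MACROH2A1. H3C13 was also among them, and since it entered the fit through its replated arrays, its F call is no independent support.

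The 3 comparisons share their arrays, so a state that lies apart enters a pair of them. Of the 14 calls on 11 histone probes, 5 held when any 1 of the 9 arrays was left out and 9 did not. The plot of log2 differences by probe shows all 41 probes in the 3 comparisons.

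**Figure D3:**
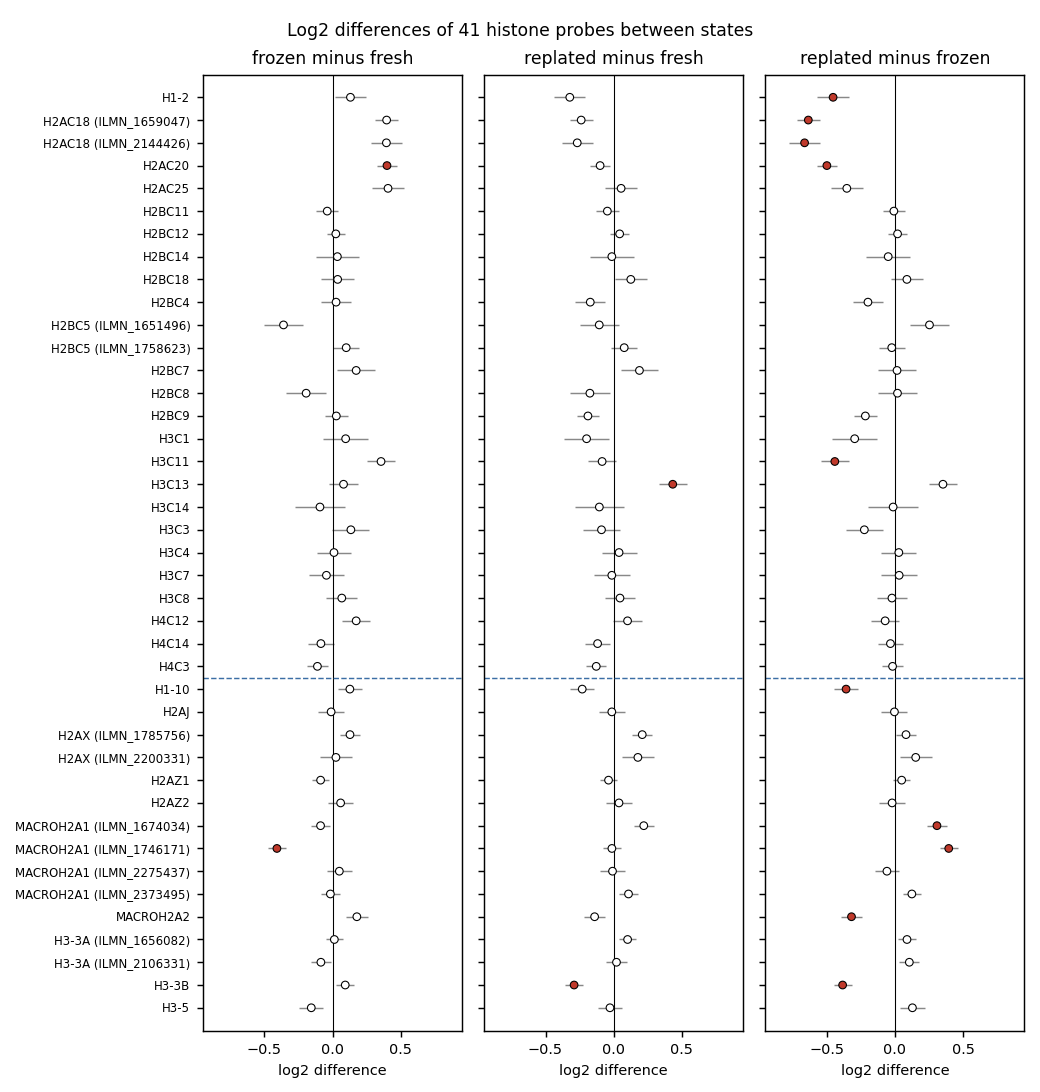
Log2 differences between states for the 41 histone probes, with bars of 1 SE from the fit over all 9 arrays, replication-dependent genes above the dashed line and variant genes below it. Filled points passed the test: 2 probes in frozen minus fresh, 2 in replated minus fresh and 10 in replated minus frozen.

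H1-2 is 1 of 6 replication-dependent linker histone genes on the array, and the only 1 of them to pass. Its log2 signal was 6.30, 6.22 and 6.13 on the fresh arrays, 6.25, 6.21 and 6.58 on the frozen arrays and 5.70, 5.95 and 6.04 on the replated arrays. All replated arrays lay below all fresh and frozen arrays, and fresh and frozen arrays overlapped. H1-2 was 1.37-fold lower in replated than in frozen cells (log2 difference -0.45 ± 0.12 SE, adjusted p 0.0311, limma), and the difference from fresh cells did not pass (-0.32 ± 0.12, adjusted p 0.151). The call was lost without replated replicate 1, replated replicate 2 or frozen replicate 3 (-0.48 to -0.33, adjusted p up to 0.0951). Median centring, the authors' processed values, no filter and a fit of only the states compared also ended it (adjusted p 0.0528 to 0.0867).

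The 4 passing probes of replication-dependent H2A genes, whose product pairs with H2B in the core, each had their highest mean in frozen cells. H2AC18 is annotated to chr1:149842218-149842750 and H2AC20 to chr1:149886918-149887411, in the smaller cluster on chromosome 1. H2AC18 has a duplicate copy, H2AC19, so its signal may come from both. The 4 differences between frozen and fresh cells lay between 0.39 and 0.41 and had no overlap between the states, beside 22.4% of all probes without overlap, but only that of H2AC20 passed. Between replated and frozen cells the 4 differences lay between -0.66 and -0.35, and 3 of them passed, beside 11.6% of all probes. Both of these counts include 2 probes of the same gene, H2AC18.

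The probe ILMN_1659047 of H2AC18 read 7.16, 7.05 and 6.93 in fresh, 7.32, 7.43 and 7.57 in frozen and 6.80, 6.77 and 6.86 in replated cells on the log2 scale. The other H2AC18 probe, ILMN_2144426, read 7.51, 7.78 and 7.88 in fresh, 7.99, 8.20 and 8.16 in frozen and 7.61, 7.28 and 7.49 in replated cells. On both probes every frozen array lay above every fresh and replated array, and fresh and replated arrays overlapped on ILMN_2144426 only. The gene was 1.55-fold and 1.58-fold lower in replated than in frozen cells by these probes (-0.63 ± 0.08 and -0.66 ± 0.11 SE, adjusted p 0.00183 and 0.00601, limma). Both calls held under every alternative tried and with each array left out. Against fresh cells the frozen values were 0.40 ± 0.08 and 0.39 ± 0.11 higher on the log2 scale, short of the threshold (adjusted p 0.0583 and 0.124), and passed under 6 and 4 of 21 alternatives.

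H2AC20 read 9.14, 9.23 and 9.08 in fresh, 9.54, 9.51 and 9.60 in frozen and 8.97, 9.06 and 9.12 in replated cells. The 3 frozen arrays stood above the other 6, which overlapped. The rise in frozen against fresh cells was 0.40 ± 0.07 (SE, adjusted p 0.0295, limma), and the fall from frozen to replated cells was -0.50 ± 0.07, 1.41-fold (adjusted p 0.00263). The latter held under every alternative and with each array left out. The former was lost when any array other than replated replicate 1 or 3 was left out (0.36 to 0.44, adjusted p up to 0.102), and with median centring, the authors' processed values or only the states compared (adjusted p up to 0.122).

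H2AC25, which lies apart from H2AC18 and H2AC20 on chromosome 1, read 6.70, 6.63 and 6.67 in fresh, 6.89, 7.05 and 7.28 in frozen and 6.52, 6.95 and 6.69 in replated cells. Fresh and frozen arrays did not overlap, while replated arrays spread across both. Neither its difference of 0.41 ± 0.12 between frozen and fresh cells (adjusted p 0.128) nor that of -0.35 ± 0.12 between replated and frozen cells (adjusted p 0.0809) passed. The remaining 13 H2A probes of this class were detected on no array.

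**Figure D4:**
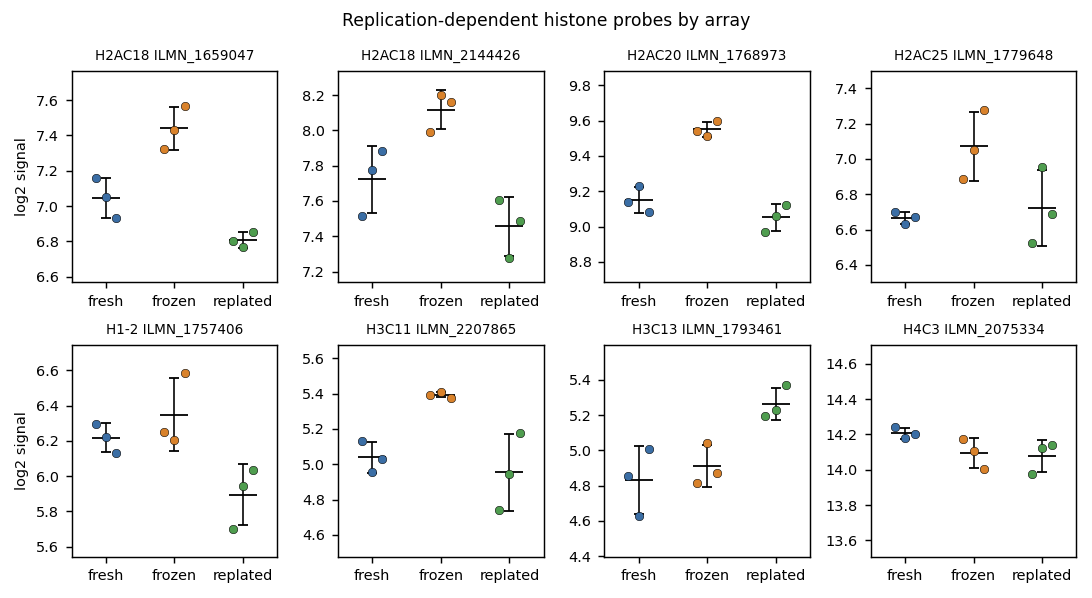
Log2 signal on each array of 8 probes of replication-dependent histone genes in fresh, frozen and replated cells, with the mean and SD of 3 arrays (each panel has its own axis range, which does not start at 0). The frozen arrays of both H2AC18 probes and of H2AC20 lay above all fresh and replated arrays, whereas the H4C3 arrays lay between 13.97 and 14.24.

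H2B genes, with 10 passing probes of 9 genes, were the largest family of the class, and none was called in any comparison. Their differences ran from -0.36 to 0.17 between frozen and fresh cells, from -0.19 to 0.19 between replated and fresh cells and from -0.22 to 0.25 between replated and frozen cells. H2BC12 read 9.08, 9.07 and 9.10 in fresh, 9.19, 9.03 and 9.09 in frozen and 9.15, 9.07 and 9.15 in replated cells. The 9 arrays of H2BC12 spanned 0.16 on the log2 scale, the narrowest range among the 26 replication-dependent probes. The largest H2B difference was that of H2BC5 probe ILMN_1651496, which read 5.87, 6.12 and 6.14 in fresh, 5.73, 5.50 and 5.82 in frozen and 5.96, 5.63 and 6.22 in replated cells. Fresh and frozen arrays of that probe did not overlap, and the difference did not pass (-0.36 ± 0.14, adjusted p 0.234, limma). The other passing H2BC5 probe, ILMN_1758623, differed by 0.10 ± 0.10. Probe ILMN_1777405 of H2BC5 was detected on no array.

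Of the other H2B probes, H2BC9 differed by -0.19 ± 0.08 in replated against fresh and by -0.22 ± 0.08 in replated against frozen cells (adjusted p 0.236 and 0.115). H2BC11 and H2BC18, detected on all arrays, differed by at most 0.13 in any comparison. H2BC4, H2BC7, H2BC8 and H2BC14 were dim, with detection on 3 to 8 arrays, and differed by at most 0.20.

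H3 genes, whose product carries many of the studied histone marks, had 8 passing probes, of which only H3C3 was detected on all 9 arrays. H3C3 read 5.99, 5.68 and 5.54 in fresh, 6.08, 5.95 and 5.58 in frozen and 5.71, 5.61 and 5.62 in replated cells, with all states overlapping and no call. Among these genes H3C11 and H3C13 were called, each in 1 comparison.

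H3C11 read 5.13, 4.95 and 5.03 in fresh, 5.39, 5.41 and 5.38 in frozen and 4.74, 4.94 and 5.18 in replated cells. It was detected on all fresh and frozen arrays and on 1 replated array. The 3 frozen arrays stood above all others, and fresh and replated arrays overlapped. It was 1.36-fold lower in replated than in frozen cells (-0.44 ± 0.10 SE, adjusted p 0.0215, limma), and the fold of so dim a probe is understated on this scale. The call was lost without any 1 of the frozen replicates or without replated replicate 1 or 2 (-0.45 to -0.33, adjusted p up to 0.0595), and with the authors' processed values (-1.12, adjusted p 0.0672).

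H3C13, annotated to chr1:149813225-149813693, read 4.86, 4.63 and 5.01 in fresh, 4.82, 5.04 and 4.87 in frozen and 5.19, 5.23 and 5.37 in replated cells. It was detected on 1 fresh, 1 frozen and 3 replated arrays, and every replated array lay above every other. Without the replated arrays it would not have met the rule of 3 arrays, so the values that follow describe a probe that the filter admitted through the state in which it was high. The fit gave a difference of 0.43 ± 0.10 between replated and fresh cells (SE, adjusted p 0.0455, limma) and of 0.35 ± 0.10 between replated and frozen cells (adjusted p 0.0526). The call was lost when any array other than fresh replicate 3 or frozen replicate 2 was left out (0.33 to 0.47, adjusted p up to 0.151). An offset of 50 moved the difference to 0.21 and the authors' processed values to 1.28, both without a call (adjusted p 0.0554 and 0.115), and median centring, no filter and only the states compared ended the call too.

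The other H3 probes were those of H3C1, H3C4, H3C7, H3C8 and H3C14. They were detected on 3 to 8 arrays, and their differences lay between -0.29 and 0.10 with no call. The highest reading of H3C14, 5.80 on fresh replicate 2, stood apart from its other 8 arrays, which lay between 4.94 and 5.26.

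H4 genes had 3 passing probes and no call. H4C3 read 14.24, 14.18 and 14.20 in fresh, 14.17, 14.11 and 14.00 in frozen and 13.97, 14.12 and 14.14 in replated cells. Fresh arrays lay above all others without overlap, by 0.11 ± 0.07 against frozen and 0.13 ± 0.07 against replated cells, and neither difference passed (adjusted p 0.471 and 0.375, limma). H4C12 and H4C14 differed by at most 0.17 and 0.12 in any comparison.

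By position, the 8 replication-dependent probes on chromosome 1 included 3 that were lower in replated than in frozen cells, and the 18 on chromosome 6 included 2. Lower calls made up 5.32% of all probes in this comparison. The median difference was -0.19 on chromosome 1 and -0.02 on chromosome 6. The 3 lower probes on chromosome 1 came from H2AC18 and H2AC20, and 2 of them from the same gene, so the chromosomes were not compared by a test. In the same cluster on chromosome 1, H3C14, H4C14 and H2BC18 were not called. H3C13 entered the fit through its replated arrays, so its call says nothing independent about the cluster. Whether the probes of the cluster differed in their response was not tested.

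Over the 26 replication-dependent probes the mean deviation from each probe's average was 0.04, 0.05 and 0.12 on the frozen arrays, -0.01, 0.01 and -0.04 on the fresh arrays and -0.10, -0.06 and -0.02 on the replated arrays. Frozen arrays were highest, and fresh and replated arrays overlapped. In frozen against fresh cells the median difference was 0.40 over 4 H2A, 0.03 over 10 H2B and 0.07 over 8 H3 probes. It was -0.09 over 3 H4 probes and 0.13 for the 1 H1 probe. The mean deviation of the class was thus uneven over its families, with H2A highest. Over the 15 variant probes the same mean ran from -0.03 to 0.05, with all states overlapping. Replication-dependent probes also spanned more, with a median range over the 9 arrays of 0.58 against 0.34 for variant probes and 0.43 for all probes. Among the 15 replication-dependent probes detected on every array the median range was 0.53. Many replication-dependent probes were dim, and the classes were not matched in brightness. The wider range is therefore not shown to be a trait of the class.

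Linker variant H1-10, encoded on chromosome 3 outside the clusters, read 8.41, 8.56 and 8.55 in fresh, 8.48, 8.69 and 8.73 in frozen and 8.16, 8.37 and 8.29 in replated cells. The replated arrays lay below all others. It was 1.28-fold lower in replated than in frozen cells (-0.36 ± 0.09 SE, adjusted p 0.0286, limma), and -0.23 ± 0.09 against fresh cells did not pass (adjusted p 0.181). The call was lost without replated replicate 1 or 3 or frozen replicate 2 or 3 (-0.37 to -0.30, adjusted p up to 0.0911), and with median centring or the authors' processed values (adjusted p 0.105 and 0.0532).

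Among the variants of H2A, H2AX is the form phosphorylated at DNA breaks, H2AZ1 and H2AZ2 encode H2A.Z, which is placed at promoters, and H2AJ differs from the standard protein mainly at its end. None of their 5 probes was called. H2AX probe ILMN_1785756 read 10.31, 10.34 and 10.34 in fresh, 10.43, 10.45 and 10.48 in frozen and 10.42, 10.65 and 10.55 in replated cells. Its fresh arrays lay below all others, with differences of 0.13 ± 0.07 in frozen and 0.21 ± 0.07 in replated cells that did not pass (adjusted p 0.390 and 0.135, limma), and the other H2AX probe, ILMN_2200331, overlapped in all comparisons.

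H2AZ1 read 14.17, 14.06 and 14.20 in fresh, 14.04, 14.05 and 14.08 in frozen and 14.13, 14.09 and 14.09 in replated cells. H2AZ2 read 5.93, 5.89 and 5.83 in fresh, 5.90, 5.98 and 5.94 in frozen and 6.14, 5.81 and 5.81 in replated cells. H2AJ read 8.36, 8.49 and 8.59 in fresh, 8.54, 8.49 and 8.38 in frozen and 8.56, 8.56 and 8.28 in replated cells. The largest difference of these genes was -0.09 ± 0.06, for H2AZ1 in frozen against fresh cells, and the states overlapped except H2AZ1 in replated against frozen cells.

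MACROH2A1 and MACROH2A2 encode macroH2A, an H2A variant with an added macro domain that is found on silent chromatin. MACROH2A1 (chr5:135334381-135399887) is alternatively spliced and had 4 passing probes, and the transcripts that each probe binds are not given in the files used here. Probe ILMN_1746171 read 10.83, 10.81 and 10.78 in fresh, 10.38, 10.39 and 10.43 in frozen and 10.87, 10.76 and 10.76 in replated cells. Its frozen arrays lay apart, below all others, and fresh and replated arrays overlapped.

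This probe was 1.33-fold lower in frozen than in fresh cells (-0.41 ± 0.06 SE, adjusted p 0.0173, limma) and 1.32-fold higher in replated than in frozen cells (0.40 ± 0.06, adjusted p 0.00464). The difference from fresh to frozen was no longer called without any 1 of the fresh replicates or without frozen replicate 1 or 2 (-0.42 to -0.40, adjusted p up to 0.0676), nor with only the states compared (adjusted p 0.0548). The difference from frozen to replated held with each array left out. Averaging the 4 probes of the gene changed these to -0.12 and 0.19 and ended both calls (adjusted p 0.353 and 0.0621).

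Probe ILMN_1674034 of MACROH2A1 read 10.32, 10.30 and 10.37 in fresh, 10.29, 10.20 and 10.22 in frozen and 10.43, 10.60 and 10.61 in replated cells. The 3 states did not overlap, with frozen arrays lowest and replated arrays highest. It was 1.24-fold higher in replated than in frozen cells (0.31 ± 0.07 SE, adjusted p 0.0212, limma), a call lost without replated replicate 2 or 3 or frozen replicate 2 or 3 (0.28 to 0.30, adjusted p up to 0.0793) and in the mean of the 4 probes.

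The other MACROH2A1 probes did not follow these patterns. ILMN_2373495 read 14.20, 14.15 and 14.22 in fresh, 14.22, 14.14 and 14.15 in frozen and 14.36, 14.32 and 14.20 in replated cells, with differences of -0.02, 0.11 and 0.12 (each ± 0.07) and no call. ILMN_2275437 lay between 6.85 and 7.14 on all arrays, and its states overlapped. The 4 probes of this gene thus gave different values for the same comparison, and the cause was not tested.

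MACROH2A2 (chromosome 10) read 8.58, 8.46 and 8.68 in fresh, 8.69, 8.72 and 8.85 in frozen and 8.37, 8.45 and 8.49 in replated cells. Frozen arrays lay above all others, and fresh and replated arrays overlapped. It was 1.25-fold lower in replated than in frozen cells (-0.32 ± 0.08 SE, adjusted p 0.029, limma). The call was lost without any 1 of the replated replicates or without frozen replicate 2 or 3 (-0.34 to -0.27, adjusted p up to 0.0934), and with median centring (-0.21, adjusted p 0.197).

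**Figure D5:**
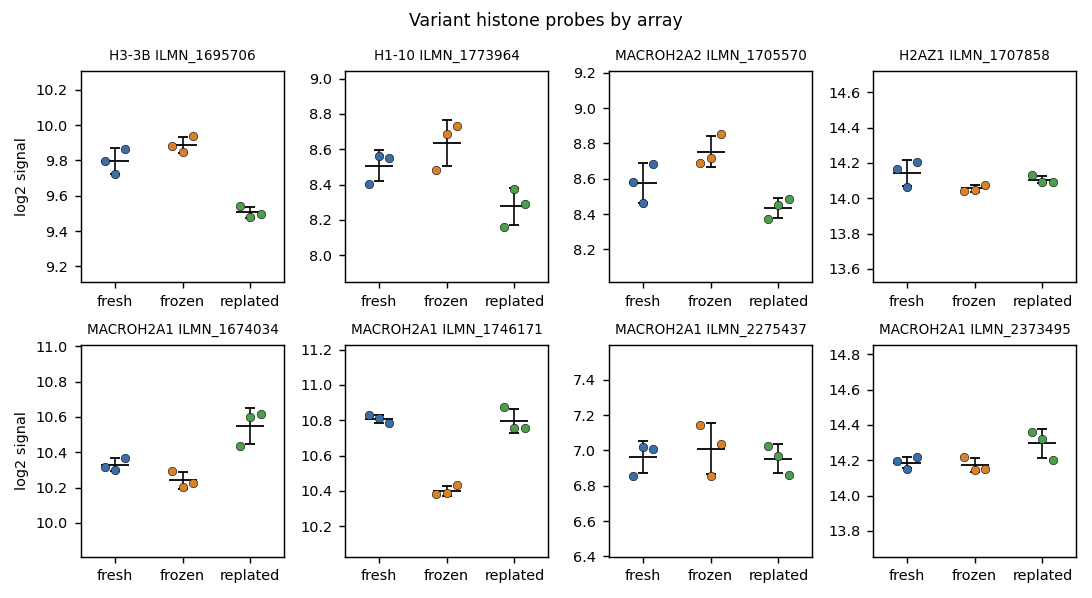
Log2 signal on each array of 8 probes of variant histone genes in fresh, frozen and replated cells, with the mean and SD of 3 arrays (each panel has its own axis range, which does not start at 0). The frozen arrays of MACROH2A1 probe ILMN_1746171 lay between 10.38 and 10.43, below all fresh and replated arrays, whereas its probe ILMN_2373495 showed no such gap.

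H3.3, the replacement form of H3 that is laid down outside replication, is encoded by H3-3A and H3-3B, whose proteins are the same. H3-3B (chr17:75776434-75779779), whose upstream window is printed above, read 9.80, 9.72 and 9.87 in fresh, 9.88, 9.85 and 9.94 in frozen and 9.54, 9.48 and 9.50 in replated cells. The replated arrays lay below all others, and fresh and frozen arrays overlapped. H3-3B was 1.22-fold lower in replated than in fresh cells (-0.29 ± 0.07 SE, adjusted p 0.0384, limma) and 1.30-fold lower than in frozen cells (-0.38 ± 0.07, adjusted p 0.00621).

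The H3-3B call against frozen cells held with each array left out and was lost only with median centring among the 21 alternatives (-0.29, adjusted p 0.0644). The call against fresh cells was lost when any array other than frozen replicate 3 was left out (-0.33 to -0.26, adjusted p up to 0.116), and with median centring, the authors' processed values or only the states compared (adjusted p 0.0529 to 0.0958).

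H3-3A probe ILMN_1656082 read 14.49, 14.46 and 14.51 in fresh, 14.56, 14.48 and 14.45 in frozen and 14.55, 14.62 and 14.59 in replated cells. Its second probe, ILMN_2106331, lay between 14.23 and 14.46. Neither was called, and the differences in replated against frozen cells were 0.09 ± 0.06 and 0.11 ± 0.07, opposite in sign to that of H3-3B. Whether H3-3A and H3-3B differed in their response was not tested. H3-5, an H3-type gene without introns that derives from H3-3B, had 1 passing probe, ILMN_1769705. It was not called, with differences of -0.16 ± 0.09, -0.03 ± 0.09 and 0.13 ± 0.09. Its raw signal ran from 1310.9 to 2007.5. The other H3-5 probe, ILMN_2061979, was detected on 1 array, with raw signals of 55.7 to 71.9. Whether the brighter probe also binds messages of related genes was not tested, so its values may not be those of H3-5 alone.

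Genes that make, end, degrade and place histone messages or proteins were read from lists chosen by function, each gene through its passing probe with the highest mean signal. Over all 10920 such genes, 0.952% were called in frozen against fresh cells (0.467% higher and 0.485% lower). In replated cells 4.59% were called against fresh cells (2.44% higher and 2.15% lower) and 12.1% against frozen cells (6.6% higher and 5.5% lower). Of 16 tested genes for transcription and 3′ processing of histone messages, none was called in any comparison (2, 2 and 1 had an unadjusted p under 0.05, limma). NPAT, the coactivator of the histone clusters, differed by 0.08, -0.11 and -0.18 (each ± 0.14), and SLBP, which binds the stem-loop, by -0.07, -0.16 and -0.10 (each ± 0.09).

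Of 11 genes of histone message decay, UPF1, an RNA helicase needed for that decay, was called. It read 7.42, 7.51 and 7.58 in fresh, 7.37, 7.38 and 7.30 in frozen and 7.73, 7.67 and 7.80 in replated cells. The states did not overlap, and UPF1 was higher in replated than in frozen cells by 0.38 ± 0.07 (SE, adjusted p 0.0077, limma). The list held 1 call in this comparison whichever array was left out. As 1 of 11 genes, beside 12.1% of all genes, this was no larger a share than the background.

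Of 34 tested genes for histone chaperones and deposition, 0, 0 and 3 were called in the 3 comparisons, beside 0.952%, 4.59% and 12.1% of all genes. The list thus held no larger a share of calls than all genes did. In replated against frozen cells SET, a chaperone that also inhibits a phosphatase, was higher by 0.29 ± 0.07 (adjusted p 0.0253, limma). RUVBL1, a subunit of remodellers that exchange H2A.Z, and MCM2, a helicase subunit that holds H3 and H4 at forks, were lower by -0.35 and -0.31 (SE 0.07 and 0.08, adjusted p 0.0152 and 0.0294). The count was 0 without replated replicate 3 or frozen replicate 2, 1 without replated replicate 1 or frozen replicate 3, and 2 without replated replicate 2 or frozen replicate 1. ASF1B and CHAF1A, chaperones of newly made H3 and H4, differed by 0.02, -0.09 and -0.11 (each ± 0.07) and by -0.13, -0.30 and -0.17 (each ± 0.13), with no call.

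Of 19 tested S phase and replication genes, none was called in frozen against fresh cells, where 0 had an unadjusted p under 0.05. RRM2, the ribonucleotide reductase subunit made in S phase, read 9.04, 9.06 and 8.96 in fresh, 8.97, 8.73 and 8.93 in frozen and 8.52, 8.55 and 8.69 in replated cells. Its replated arrays lay below all others. RRM2 was lower in replated than in fresh cells by -0.43 ± 0.08 (SE, adjusted p 0.0202, limma) and than in frozen cells by -0.29 ± 0.08 (adjusted p 0.0483). The helicase subunit MCM3 was lower too, by -0.31 and -0.28 (each ± 0.07, adjusted p 0.0432 and 0.033), and MCM2 was lower against frozen cells, as given above.

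PCNA, the sliding clamp of replication, differed by 0.03, 0.08 and 0.05 (each ± 0.09) and was not called. The median over the 19 genes was 0.01, -0.11 and -0.12 in the 3 comparisons, beside 0.01, 0.00 and 0.00 over all 10920 genes. In replated cells 17 of the 19 lay below 0 against fresh cells and 16 against frozen cells, beside 5499 and 5566 of all 10920 genes. Calls were 2 of the 19 against fresh cells, beside 4.59% of all genes, and 3 against frozen cells, beside 12.1%. Against fresh cells the 2 calls became 0 without fresh replicate 1, fresh replicate 2 or replated replicate 2, and 1 without any other array except frozen replicate 1. Against frozen cells the 3 calls became 0 without replated replicate 1, replated replicate 3 or frozen replicate 3, 1 without replated replicate 2, frozen replicate 1 or frozen replicate 2, and 2 without any 1 of the fresh replicates. Median centring left 1 and 0 calls. The part of S phase genes in the histone values was not tested.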

How the data were processed

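Total RNA of THP-1 cells was labelled as biotinylated cRNA, per the labels' protocols, and the state and replicate number come from each sample's title. The main deposited table gives each probe's raw brightness, an intensity that its header calls non-normalized. Beside it stands a detection score, which the header names a p value but which rises with signal and was read as 1 minus the detection p. The authors' way of computing the score is not stated in the labels or headers used here. The authors' processed table also holds intensity on a linear scale. Its columns share the same maximum, have medians of 5.04 to 5.06 and a rank correlation of 1 with the raw signal. Background correction and quantile normalization could give such values, but this was not tested. The program used by the authors is not given in the labels or headers used here.

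Signals were corrected by normexp with parameters inferred from the detection p (limma 3.58.1 in R 4.3.3, offset 16), quantile-normalized and logged to base 2. Folds on this scale understate changes of dim probes. The 18102 passing probes were fitted over all 9 arrays with lmFit and eBayes (residual df 6, prior df 4.65), Benjamini-Hochberg adjusted, and called at an adjusted p under 0.05. The fit was tested on simulated data. Tables were joined in Python 3.11.15 with pandas 2.3.3. Symbols were updated through Entrez IDs, and 1 probe of several histone genes was not used. Sequences and positions are RefSeq's, GRCh38.p14.

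All passing histone probes were named. Called probes and, per family, the probe with the highest mean signal were given on all arrays. From related lists, called genes and SLBP, NPAT, ASF1B, CHAF1A, PCNA and RRM2 were named. Members and lists were chosen with earlier results of these data known. Alternatives were an offset of 50, no background correction, centring on the median, the authors' values, detection scores above 0.99 on all arrays, no filter, a replicate block, array weights, a trended robust prior, only the states compared, the mean of a gene's probes and each array left out. Replicate numbers recur in all states but did not pair the samples, since deviations of same-numbered arrays correlated between -0.0476 and 0.0473.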

Additional observations from a re-analysis of the deposited data

How the results depend on the processing

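Of 2538 values of single histone probes under alternatives (123 probe and comparison pairs, 21 settings), 2437 stayed on their side of the threshold, 76 lost a call, 25 gained one and 0 reversed a call. The 2 calls in frozen against fresh cells became 4 with an offset of 50, 5 without background correction, 5 with a trended robust prior, 1 with median centring over all probes, 1 with the authors' values and 0 with only the states compared. With single arrays left out they numbered 0 to 2. The 2 calls in replated against fresh cells became 1 with an offset of 50, 1 with the stricter filter, 1 without a filter, 4 with the trended robust prior, and 0 with median centring, the authors' values or only the states compared. With single arrays left out they numbered 0 to 1. The 10 calls in replated against frozen cells numbered 5 to 11 with single arrays left out and 7 to 11 under the other settings. The 8 calls of the F test became 5 with the authors' values, 5 with the mean of a gene's probes, 13 with the trended robust prior and 5 to 6 with single arrays left out.

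Centring on the median over all probes moved the median of passing probes to -0.10 in frozen against fresh cells, with 70 higher and 757 lower calls in place of 88 and 96. Centring on the median of passing probes, chosen after seeing the data, gave 200 and 87, and 4, 1 and 10 histone calls in the 3 comparisons, in the order given above. An offset of 50 gave 187 and 355, and no background correction 188 and 374. Under median centring over all probes the median of variant probes in frozen against fresh cells was -0.07 in place of 0.01. In replated against frozen cells, centring over all probes gave 2028 higher and 369 lower calls, and centring over passing probes 918 and 1479, in place of 1132 and 963.

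With the replicate number as a block, histone calls numbered 1, 0 and 10 in the 3 comparisons and 6 by the F test. The block ended the calls of H2AC20 in frozen against fresh cells (adjusted p 0.0609) and of H3C13 and H3-3B in replated against fresh cells (0.0683 and 0.0643). The cause of these changes was not tested. Signal near the negative controls limits what 3 arrays per state can show for the dim replication-dependent probes.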
